A study of Mus musculus with 72 samples.

Results

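The 37 genes carried by the mouse mitochondrial genome were followed in liver and in the suprachiasmatic nucleus (SCN), the hypothalamic clock nucleus, of mice whose food lacked methionine and choline (the MCD diet) or was the isocaloric control. The members were all genes whose symbol begins with mt-. The liver table held 37 of them among 22823 genes, with 13 messenger RNA (mRNA), 2 ribosomal RNA (rRNA) and 22 transfer RNA (tRNA) genes. The SCN table held 30 of them among 15759 genes, with 13 mRNA, 2 rRNA and 15 tRNA genes. The tRNA genes mt-Tn, mt-Tc, mt-Tp, mt-Th, mt-Ts2, mt-Tt and mt-Tv were outside the SCN table. Every member in a table passed the filter on low counts, though mt-Tv and mt-Tf in liver passed it through MCD libraries alone.

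All groups were C57BL/6 mice aged 8 to 12 weeks, housed singly and fed ad libitum for 11 days. They were kept in 12 h of light and 12 h of darkness for 10 days and then in constant darkness, and were killed at 6 circadian times (CT), every 4 h from CT0 to CT20. Each of the 24 combinations of tissue, diet and time had 3 libraries, labelled as 2 males and 1 female, so each diet had 18 libraries per tissue. SCN tissue was cut by laser microdissection from stained sections, and libraries were made from RNA captured on poly-T beads. The MCD diet is a widely used model of fatty liver and inflammation that also lowers body weight, which limits it as a model of obesity-linked liver disease.

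Mitochondrial DNA is transcribed from both strands as long precursors. In most of these precursors the tRNAs lie between the mRNAs and rRNAs, and RNase P and RNase Z cut them out, which also frees their neighbours. The mRNAs encode core subunits of respiratory complexes I, III and IV and of the ATP synthase, complex V, and the rRNAs build the mitochondrial ribosome. Liver is rich in mitochondria, which oxidise fatty acids there. The plus strand, as annotated on GRCm38, held 28 members, and the minus strand held 9, namely mt-Nd6 and 8 tRNA genes. Mature mitochondrial tRNAs do not carry the long poly(A) tails that poly-T beads capture, and the mRNA of the human counterpart of mt-Nd6 is known to lack them. Counts of these genes in such libraries may come from precursors, adenylated intermediates or unselected RNA, which the tables do not separate.

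Library totals, in units of 1000000 counts, ran from 52.6 to 86.7 in liver (median 64.4) and from 23.3 to 79.8 in SCN (median 57.0). Defining markers matched the labelled tissues. The summed level of 8 hepatocyte markers was 81069 to 136312 CPM (counts per 1000000 counts of the library) in liver libraries, and the 2 of them in the SCN table summed to 2.26 to 26.7 CPM. All 8 SCN neuron markers were in the SCN table, where their sum was 1651 to 4266 CPM, and the 2 of them in the liver table, Rgs16, which liver is known to express, and Lhx1, summed to 6.52 to 407 CPM. The liver libraries fell into 2 kinds, set apart below by mt-Nd6, with 8 control and 13 MCD libraries of the low kind. One library, MCD CT12 replicate 2, a low-kind male, stood apart. Its mitochondrial share of counts was 3.71%, where the next lowest MCD library had 5.31%, its TMM scaling factor was 1.27, and it was the lowest MCD library for 12 of 13 mRNAs. Results it moves are given with and without it. No pair of replicates was a duplicate, since the lowest chi-square per degree of freedom was 27.2 in liver and 24.1 in SCN.

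Mitochondrial genes took a smaller mean share of the counts in MCD liver than in control liver, and the same mean share in SCN on both diets. The shares are described without a test. In control liver the 37 genes held 5.41% of counts in the lowest library, 7.24% at the median and 8.11% in the highest. In MCD liver the 3 values were 3.71%, 5.95% and 6.58%. The diets overlapped, and the means were 7.11% ± 0.701 and 5.82% ± 0.661 (SD, n = 18 each). The mRNAs made up nearly all of it, at 7.0% ± 0.7 on control and 5.72% ± 0.655 on MCD, while rRNAs held 0.0754% ± 0.0132 and 0.0635% ± 0.0198 and tRNAs 0.0272% ± 0.00827 and 0.0288% ± 0.00995. In SCN the share was 10.2% ± 1.46 on both diets (SD, n = 18 each), with 9.11% in mRNAs, 1.04% in rRNAs and 0.0226% in tRNAs on control.

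Levels per kilobase of gene set the mRNAs and rRNAs of a tissue beside each other, with the tRNAs left out of the order. In control liver, mt-Co1, the catalytic core of cytochrome c oxidase, stood at 14048 ± 1213 CPM per kb (SD, n = 18) and mt-Cytb, the cytochrome b of complex III, at 8351 ± 1017. The lowest library for mt-Co1, at 11367, was above the highest for mt-Cytb, at 9918. Below mt-Cytb each gene overlapped its neighbours in the order of the means, except that mt-Nd3 lay wholly below mt-Nd4l, with mt-Atp6 at 7395, mt-Nd2 at 5579, mt-Nd1 at 5559, mt-Atp8 at 5553, mt-Co3 at 5239.8, mt-Co2 at 4955 and mt-Nd4 at 4808 CPM per kb. The complex I genes mt-Nd5 (3137), mt-Nd4l (2874), mt-Nd3 (1000.2) and mt-Nd6 (852) came next, and the rRNAs of the small and large ribosomal subunits, mt-Rnr1 (326) and mt-Rnr2 (280.0), had the lowest means of these 15 genes. The place of mt-Nd6 depended on the kind of library, since in the 8 control libraries of the low kind it was at 198 ± 31.9 CPM per kb, below mt-Rnr2 at 293 ± 53.3 and mt-Rnr1 at 368 ± 64.4. In control SCN mt-Co1 was again first, at 13243 ± 1587 CPM per kb, but overlapped mt-Atp6, at 12449 ± 1918. Both rRNAs were far higher there than in liver, at 3902 ± 929 for mt-Rnr1 and 4218 ± 1081 for mt-Rnr2 in CPM per kb, and mt-Nd6 was the lowest of the same 15 at 349 ± 49.7. The tissues were prepared and tabulated separately, so these levels were set side by side without a test.

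**Figure D1:**
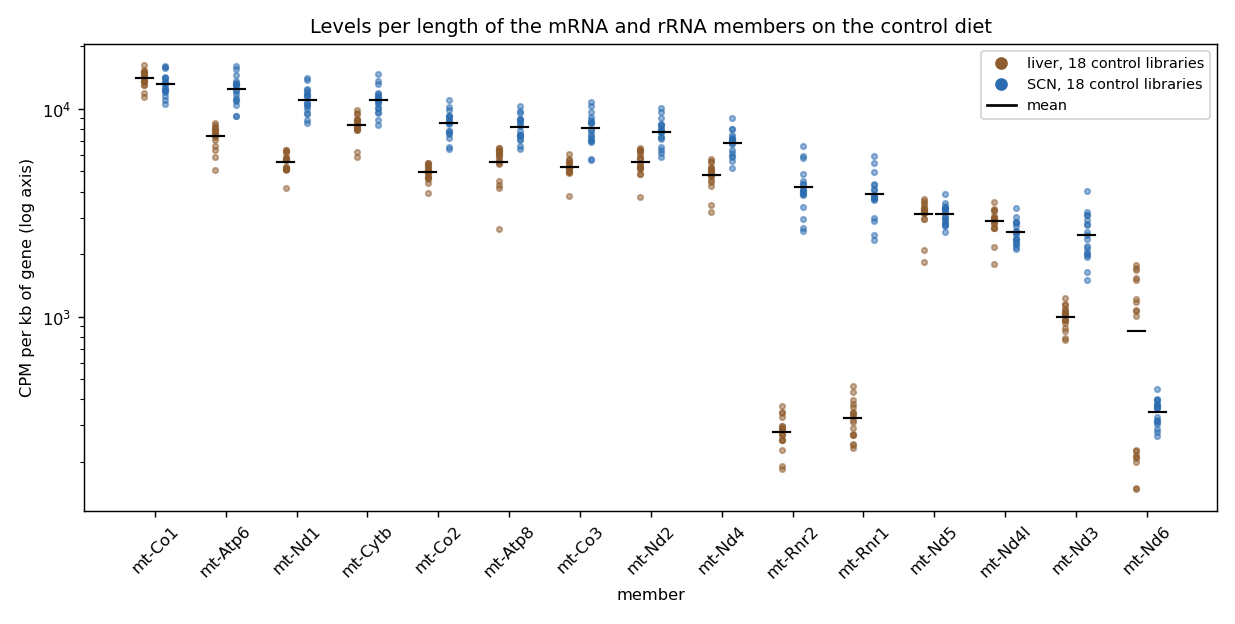
CPM per kilobase of gene (log axis) for the 13 mRNA and 2 rRNA genes in control liver and control SCN, 1 point per library and a bar at the mean of 18. The means of mt-Rnr1 are 326 in liver and 3902 in SCN, and mt-Nd6 spreads from 147 to 1782 in liver.

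To ask what the MCD diet did to the mitochondrial RNAs of the liver, the mean difference over the 6 times was tested with edgeR's quasi-likelihood test, adjusted over all 20249 genes tested. Of the 37 members, 7 rose and 19 fell at an adjusted p under 0.05, so 26 were called, against 46.6% of all genes tested (25.3% higher and 21.2% lower). With limma 4 rose and 19 fell, since mt-Td, mt-Tr and mt-Tf did not pass (adjusted p = 0.089, 0.0786 and 0.0786), and with DESeq2 7 rose and 21 fell. Without mt-Nd6, whose level sets the 2 kinds of library, 25 of 36 were called in edgeR, 7 higher and 18 lower. The members' median log2 difference, MCD minus control, was -0.48, and that of all genes was 0.02. By class, 12 of 13 mRNAs fell (median -0.50) and both rRNAs fell (median -0.53), while of 22 tRNAs 7 rose, 5 fell and 10 did not pass. Bulk values do not separate less RNA per cell from fewer cells of a type, and 6 of 6 Kupffer cell and macrophage markers rose with the diet, from a summed 241 to 733 CPM on control to 395 to 953 CPM on MCD. Of 8 hepatocyte markers, 5 fell and 1 rose, while their summed level was 81069 to 115807 CPM on control and 87943 to 136312 CPM on MCD, with means of 97337 and 117263 CPM. Of 5 erythrocyte markers 4 fell, with mean sums of 252 CPM on control and 164 CPM on MCD, and of 6 endothelial and stellate cell markers 2 rose and none fell, with mean sums of 277 and 359 CPM. The marker calls are on the TMM scale and the sums are unscaled CPM, so a sum can rise where most calls fall. The TMM scaling factors averaged 0.917 on control and 1.10 on MCD. The part of these cells in the mitochondrial result was not tested.

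The scaling of the libraries bears on these directions. The TMM scaling factors averaged 0.917 on control and 1.10 on MCD, and scaling by library totals alone moved the median of all genes from 0.02 to 0.27 log2. Under totals, 60.1% of all genes were called but 7.61% were called lower. Of the mRNAs, 8 of 13 were still called lower (median -0.25), both rRNAs were still called lower, and the tRNAs gave 10 higher and 3 lower. The calls of mt-Co2, mt-Atp6 and mt-Atp8 were then lost, and mt-Nd1 changed sign from -0.24 to 0.02 (edgeR adjusted p = 0.876).

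Complex I, which passes electrons from NADH into the respiratory chain, has 7 mitochondrially encoded subunits, and 6 of their genes fell, counting mt-Nd6 with the kinds of library pooled. The mt-Nd2 level was 3909 CPM in the lowest control library, 5853 at the median and 6733 in the highest, and 1573, 3810.2 and 5273 CPM on MCD. The diets overlapped only in part, and the log2 difference was -0.94 ± 0.11 (SE, edgeR adjusted p = 8.51e-08). The mt-Nd5 level was 3361, 5898 and 6727 CPM on control against 2789, 3771 and 4743 CPM on MCD. Its log2 difference was -0.86 ± 0.09 (adjusted p = 3.63e-08), and the only control libraries within the MCD range were 1 female at CT4 (3361 CPM) and 1 of the 2 males at CT8 (3822 CPM). In these 2 libraries the mitochondrial share of counts was also the lowest of the controls, at 5.41% and 5.59%.

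Apart from mt-Nd6, described with the 2 kinds of library, the other complex I genes moved less. The mt-Nd4 level was 4413, 6776 and 7896 CPM on control against 3302, 5551 and 6837 CPM on MCD (log2 -0.52 ± 0.08, adjusted p = 1.58e-05), and mt-Nd4l, whose coding sequence overlaps that of mt-Nd4, was 532, 871 and 1061 CPM and then 482, 705 and 957 CPM (-0.48 ± 0.08). Both fell with overlapping ranges. The mt-Nd1 level was 3975, 5445 and 6102 CPM on control against 2604, 5476 and 6437 CPM on MCD. Its medians were alike, and its difference of -0.24 ± 0.09 (adjusted p = 0.0321) was lost without any of 5 single libraries, where adjusted p reached 0.0565. Those were control CT4 replicates 1 and 2, control CT8 replicate 3, control CT20 replicate 2 and MCD CT20 replicate 3. The mt-Nd3 level was 269, 355 and 428 CPM on control against 121, 396 and 818 CPM on MCD, a difference of 0.01 ± 0.13 that did not pass (adjusted p = 0.96). One MCD library, CT12 replicate 2, lay below the control range, and the next lowest was at 270.0 CPM.

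Complexes III, IV and V fell together on the TMM scale. The mt-Cytb level was 6692, 9669.9 and 11346 CPM on control against 5870, 6940 and 8613 CPM on MCD. Its log2 difference of -0.72 ± 0.07 (adjusted p = 9.52e-09) had the lowest p of the members, and 1 control library, the same male at CT8, lay below the MCD median. The 3 core subunits of cytochrome c oxidase were next. The mt-Co1 level was 17562, 21890 and 25095 CPM on control against 13341, 18578 and 20803 CPM on MCD (log2 -0.50 ± 0.07, adjusted p = 6.58e-07). The mt-Co3 level was 2993, 4083 and 4778 CPM and then 1816, 3180 and 3939 CPM (-0.64 ± 0.08, adjusted p = 6.97e-07), and mt-Co2 was 2699, 3417 and 3762 CPM and then 1962, 3234 and 3909 CPM (-0.32 ± 0.08, adjusted p = 0.00109). All 3 overlapped between diets. The ATP synthase genes mt-Atp6 and mt-Atp8 have overlapping reading frames, so their counts may be split. The mt-Atp6 level was 3451, 5172 and 5819 CPM and then 2154, 4859 and 5696 CPM (-0.36 ± 0.09, adjusted p = 0.0025), and mt-Atp8 was 537, 1213 and 1325 CPM and then 284, 1115 and 1330.1 CPM (-0.40 ± 0.14, adjusted p = 0.0199). Their medians lay close, and the lowest MCD value of both came from CT12 replicate 2, with the next lowest at 4058 and 788 CPM.

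Both rRNAs fell by similar amounts. The mt-Rnr1 level was 222 CPM in the lowest control library, 311 at the median and 445 in the highest, and 148, 260 and 420 CPM on MCD (log2 -0.51 ± 0.09, adjusted p = 5.42e-05). The mt-Rnr2 level was 293, 445 and 589 CPM and then 180, 394 and 529 CPM (-0.55 ± 0.11, adjusted p = 0.000185). Their ranges overlapped widely.

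**Figure D2:**
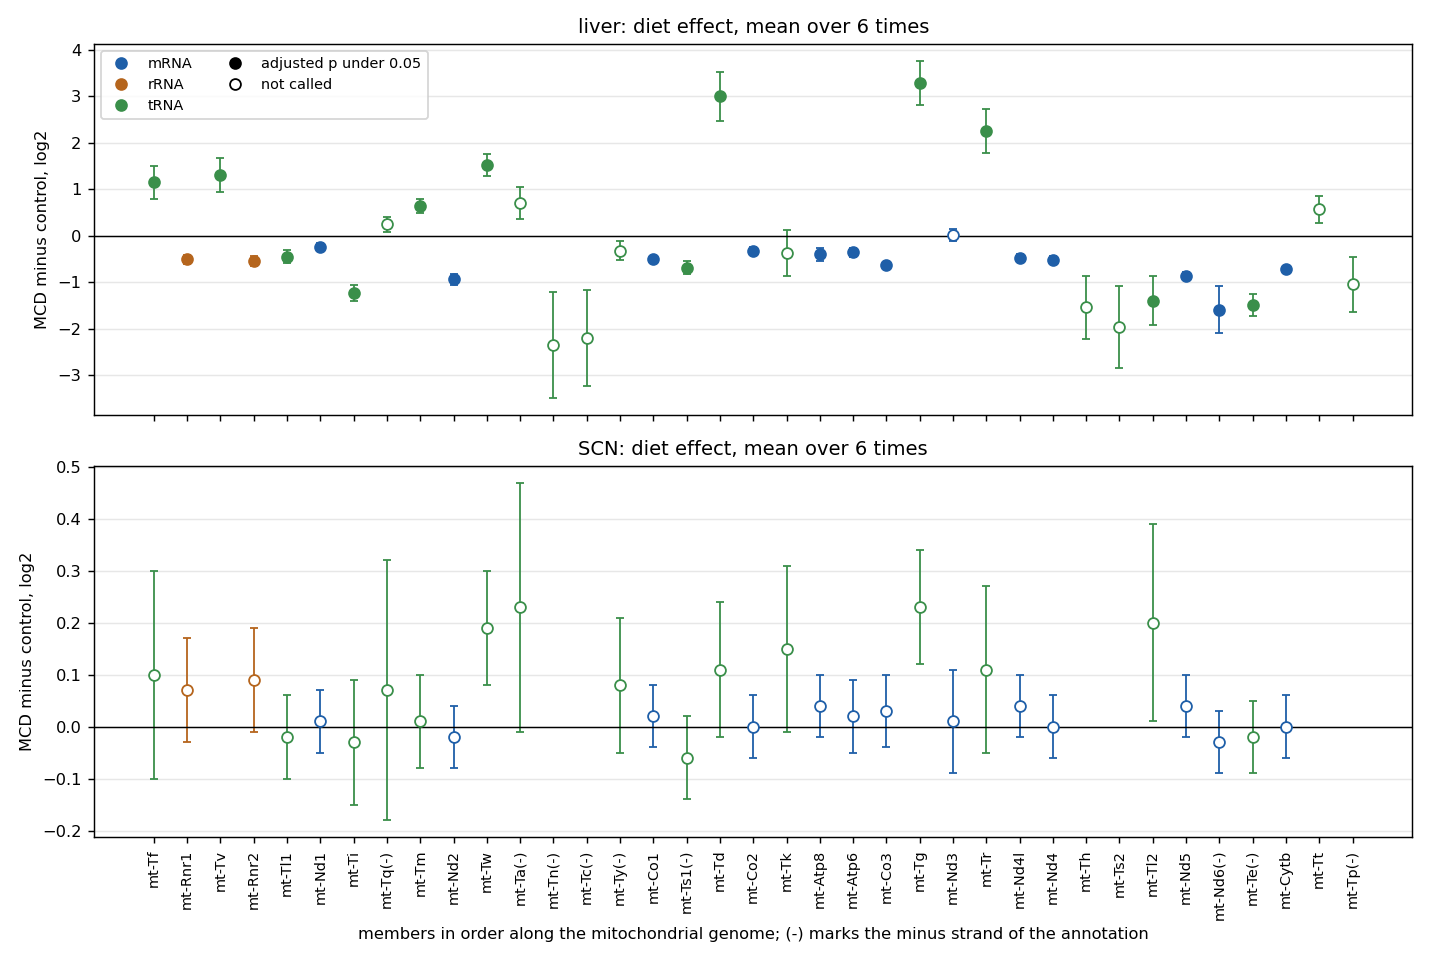
Log2 difference between MCD and control (mean over 6 times, error bars ± 1 SE) for each member in liver (top) and SCN (bottom, on a narrower axis), in order along the mitochondrial genome and coloured by class, with filled points for called members. In liver 12 of 13 mRNAs lie below 0 past the threshold and tRNAs lie on both sides, from 3.29 for mt-Tg to -2.35 for mt-Tn, which was not called, while SCN mRNAs stay between -0.03 and 0.04.

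The tRNAs diverged from the mRNAs and from each other. The 4 that rose most by fold were mt-Tg (glycine), mt-Td (aspartate), mt-Tr (arginine) and mt-Tw (tryptophan), and the 5 that fell were mt-Te (glutamate), mt-Tl2 (a leucine tRNA), mt-Ti (isoleucine), mt-Ts1 (a serine tRNA) and mt-Tl1 (the other leucine tRNA). The sequences of the main members of each set are shown 5′ to 3′ as annotated on GRCm38 in GENCODE M21, with the anticodon in capitals, because genes of 67 to 70 bases can share reads with what flanks them.
mt-Tg: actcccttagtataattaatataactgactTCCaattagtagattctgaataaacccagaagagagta
mt-Tr: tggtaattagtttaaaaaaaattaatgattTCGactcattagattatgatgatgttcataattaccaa
mt-Td: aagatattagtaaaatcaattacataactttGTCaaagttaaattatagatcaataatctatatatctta
mt-Tw: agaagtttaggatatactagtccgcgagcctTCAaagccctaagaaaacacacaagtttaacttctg
mt-Ti: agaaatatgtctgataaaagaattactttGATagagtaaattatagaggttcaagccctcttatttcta
mt-Te: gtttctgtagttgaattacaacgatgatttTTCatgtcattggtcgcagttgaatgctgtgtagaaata
On GRCm38, mt-Tg occupies chrM:9391-9458 with no base between it and mt-Co3 before it or mt-Nd3 after it. The mt-Tr gene at chrM:9808-9875 lies 1 base from mt-Nd3 and 1 base from mt-Nd4l. The mt-Td gene is at chrM:6942-7011, mt-Tw at chrM:4950-5016 and mt-Ti at chrM:3706-3774, all on the plus strand, and mt-Te is at chrM:14071-14139 on the minus strand. Reads that cross such borders can be counted to the tRNA, to its neighbour or to neither, and the rule used for the tables is not given in the sources used here.

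Most of the tRNAs that rose were scarce on control. The mt-Tg level was 0.324 CPM in the lowest control library, 1.45 at the median and 2.91 in the highest, and 1.10, 13.7 and 113 CPM on MCD (log2 3.29 ± 0.47, adjusted p = 3.15e-06). The highest MCD library stood far above every control, but 6 of the 18 MCD libraries lay within the control range. The mt-Td level was 0.0327, 0.195 and 0.411 CPM on control against 0.0155, 0.706 and 20.1 CPM on MCD (3.00 ± 0.53, adjusted p = 4.57e-05). The mt-Tr level was 0.349, 0.635 and 1.71 CPM on control against 0.14, 1.43 and 58.8 CPM on MCD (2.25 ± 0.47, adjusted p = 0.000347). Both had MCD libraries far above the controls. Below the lowest control lay 1 MCD library for mt-Td, CT12 replicate 2, and 2 for mt-Tr, that one and CT4 replicate 2 at 0.323 CPM. The mt-Tw level was 3.23, 5.46 and 7.64 CPM on control against 4.26, 18 and 45.2 CPM on MCD (1.52 ± 0.24, adjusted p = 1.38e-05), and mt-Tm, the methionine tRNA that abuts mt-Nd2, was 12.7, 19.6 and 27.4 CPM and then 15.8, 43.0 and 58.7 CPM (0.64 ± 0.15, adjusted p = 0.00124). The other 2 that rose were mt-Tv (1.31) and mt-Tf (1.15), the valine and phenylalanine tRNAs that flank mt-Rnr1. Their highest control libraries held 8 and 6 counts and their highest MCD libraries 51 and 47, and 6 and 7 MCD libraries held 10 or more, so their direction was tied to passing the filter. With a minimum of 50 counts, 34 members were tested, without mt-Tv and mt-Tf, and 5 rose and 19 fell.

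Of the tRNAs that fell, mt-Ts1 and mt-Te had the highest mean CPM of all tRNAs in control liver. The mt-Te level was 27.0, 66.2 and 115 CPM on control against 10.1, 27.4 and 50.5 CPM on MCD (log2 -1.49 ± 0.23, adjusted p = 8.78e-06). The mt-Ts1 level was 61.0, 103 and 137 CPM and then 37.9, 72 and 107 CPM (-0.69 ± 0.14, adjusted p = 0.000212). The mt-Ti level was 4.13, 8.13 and 11.1 CPM and then 0.637, 4.14 and 6.69 CPM (-1.23 ± 0.17, adjusted p = 1.55e-06). Their medians fell while their ranges still overlapped. The mt-Tl1 difference was -0.45 ± 0.14, and the mt-Tl2 difference of -1.40 ± 0.53 (adjusted p = 0.0305) lost its call without any of 6 single control libraries, with adjusted p up to 0.116. Those were replicate 2 at CT0, 1 at CT4, the shallower of the 2 males at CT8, 3 at CT12, 1 at CT16 and 1 at CT20, all of the high mt-Nd6 kind described below. With the kind as a term in the fit the mt-Tl2 difference was -0.65 (adjusted p = 0.0847), and among libraries of the low kind it was -0.46 (adjusted p = 0.512). The asparagine tRNA mt-Tn had a large difference of -2.35 ± 1.15 that did not pass (adjusted p = 0.0975). The other 24 called members kept their call when each of the 36 libraries was left out in turn. Without MCD CT12 replicate 2 these 26 and 2 more were called, mt-Ta and mt-Tt, both higher.

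A second deposited count, of reads in exon bins, covered mRNAs and rRNAs but few of the tRNA reads. With it 16 of the 27 members tested were called, 10 mRNAs and both rRNAs lower and 4 tRNAs, against 39.8% of all genes. The mt-Tg and mt-Tr genes were at 0 in all 34 readable liver bin files, where the gene table held 38631 and 12329 counts in the 32 of these libraries with a replicate number, and so were 5 other tRNA genes. For mt-Td the bins held 329 counts against 5090, and the bin difference of 0.46 did not pass (adjusted p = 0.459). The mt-Tw difference was 1.51 with bins. The results for mt-Tg, mt-Td and mt-Tr therefore rest on the gene table.

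The diet difference was tested at each time as well. At CT0 it was called for 9 members, 1 higher and 8 lower, against 12.6% of all genes (6.57% higher and 6.02% lower). At CT4 it was called for 4, all lower, against 18.2% (9.46% higher and 8.71% lower). At CT12 there were 17, of which 5 rose and 12 fell, against 15.2% (8.09% and 7.13%), and at CT16 there were 14, of which 6 rose and 8 fell, against 12.5% (6.52% and 5.98%). At CT20 there were 5, of which 2 rose and 3 fell, against 11.3% (5.7% and 5.6%). Without MCD CT12 replicate 2 the count at CT12 was 11, of which 6 rose and 5 fell, against 6.05%, and those of mt-Nd4, mt-Nd4l, mt-Rnr1, mt-Rnr2, mt-Te, mt-Ti and mt-Tl1 were lost and that of mt-Tm gained. In that fit the counts were 11 at CT0 against 13.2% of all genes, 7 at CT4 against 19.5%, 17 at CT16 against 13.5% and 10 at CT20 against 12.4%. The calls at CT0, CT4, CT12, CT16 and CT20 also depended on the replicate numbers. Without replicate 1, 2 or 3 in turn, CT0 had 0, 0 and 1 (0.411%, 3.13% and 7.16% of all genes). In the same order CT4 had 0, 0 and 3 (1.61%, 5.29% and 12.1%) and CT20 had 0, 0 and 2 (1.16%, 1.27% and 7.41%), all lower. At CT12 there were none without replicate 1 (0.567% of all genes), 3 without replicate 2, all higher (0.264%), and 10 without replicate 3, all lower (9.91%). At CT16 there were 2 without replicate 1, both lower (1.58%), 10 without replicate 2, 6 higher and 4 lower (2.62%), and 5 without replicate 3, 2 higher and 3 lower (4.76%). At CT8 none was called, against 1.3% of all genes. There, 4 members had an unadjusted p under 0.05 in edgeR, and DESeq2 and limma also called none, against 3.24% and 1.22% of all genes. Without 1 library, the deeper of the 2 control males at CT8, edgeR called 3 at CT8, mt-Cytb (-0.76), mt-Nd5 (-0.92) and mt-Co3 (-0.74), all lower, and 7 at CT4, also all lower. With a replicate block, which leaves out both of those males, 1 was called at CT8. For these 2 fits the share of all genes at single times is not given here. For the mean over 6 times they called 10049 of 20669 and 9368 of 21338 genes, against 9426 of 20249 with all libraries. The rises depended on the tool, since limma called none higher at CT0, CT12 or CT20 and 5 higher at CT16, where DESeq2 called 2, 5, 4 and 6 higher at CT0, CT12, CT20 and CT16. Of all genes, in either direction, limma called 11.3%, 14.2%, 9.51% and 11.2% at these 4 times. DESeq2 called 16.1%, 19.7%, 15.6% and 17.1%. In all, 18 members were called at 1 or more times, for which the share over all genes was not counted. At CT16 the largest called rises were those of mt-Td (log2 6.55), mt-Tg (6.24), mt-Tr (5.73) and mt-Tv (4.47). The largest called falls there were those of mt-Ti (-1.78), mt-Nd2 (-1.72), mt-Rnr2 (-1.40) and mt-Rnr1 (-1.31). The rises called at CT12 and CT16 included mt-Tv, and those at CT16 also mt-Tf. Both tRNAs passed the filter through MCD libraries alone, so their rise was tied to being tested.

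To ask whether the mitochondrial RNAs followed a 24 h rhythm, the cosine and sine components of the 6 time means were tested on each diet. On control none of the 37 members was called, against 17.8% of all genes, with 4 members at an unadjusted p under 0.05 in edgeR and none called by limma. On MCD 12 were called, against 28.2% of all genes. They were the tRNAs mt-Tg, mt-Td, mt-Tr, mt-Tv, mt-Tf, mt-Tw and mt-Tl1, the complex I mRNAs mt-Nd2, mt-Nd3 and mt-Nd4l, and both rRNAs. The rhythm itself differed between the diets for 6 members, mt-Tg, mt-Td, mt-Tr, mt-Tv, mt-Nd2 and mt-Rnr1, against 4.87% of all genes.

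The 4 tRNAs of this set peaked together, and mt-Nd2 and mt-Rnr1 peaked at the other end of the cycle. Fitted peaks on MCD were at CT16.3 for mt-Tg, CT16.4 for mt-Td, CT16.6 for mt-Tr and CT15.9 for mt-Tv. Those of mt-Nd2 and mt-Rnr1 were at CT4.1 and CT5.5. In the 3 MCD libraries of CT16, mt-Tg was 113, 91.8 and 112 CPM, against 1.67, 0.834 and 0.978 CPM in the control libraries of that time. At CT4 it was 1.96, 1.78 and 1.65 CPM on MCD and 2.82, 1.43 and 1.03 CPM on control. So the diets were apart at CT16 and overlapped at CT4. The CT12 MCD libraries disagreed, at 39.5, 1.10 and 67.5 CPM, and so did those of CT0, at 11.0, 36.1 and 1.24 CPM. The fitted peak-to-trough range of mt-Tg was 0.54 log2 on control and 5.15 on MCD, and the range of the difference was 5.51 (edgeR adjusted p = 0.0334).

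The other tRNAs of this set varied with mt-Tg across the MCD libraries. At CT16 mt-Td was 13.8, 12.7 and 20.1 CPM on MCD and 0.0327, 0.195 and 0.181 CPM on control. At CT4 it was 0.103, 0.173 and 0.169 CPM on MCD, below the controls of that time at 0.195, 0.411 and 0.175 CPM, a difference that was not called (adjusted p = 0.636). At CT12 it was 6.34, 0.0155 and 7.95 CPM on MCD, so the replicate that was low for mt-Tg was low here too. At CT16 mt-Tr was 30.0, 29.5 and 58.8 CPM on MCD and 0.85, 0.461 and 0.557 CPM on control. The ranges of the differences were 6.41 for mt-Td (adjusted p = 0.033) and 6.00 for mt-Tr (adjusted p = 0.0273). The mt-Tv level never exceeded 0.888 CPM, in an MCD library of CT16, and was 0.0163 to 0.0355 CPM in the CT16 controls. Its range of 4.87 (adjusted p = 0.0215) rests on 331 counts in all over the 36 libraries, and no control library reached 10. With a minimum of 50 counts mt-Tv was not tested, and the rhythm difference was called for mt-Rnr2 and the other 5.

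Among the mRNAs mt-Nd2 showed the reverse. It was 2610, 2231 and 1586 CPM on MCD at CT16, where controls were 6033, 6047 and 5430.0 CPM, and 5106, 4490 and 5233 CPM on MCD at CT4, where controls were 6441, 6055 and 3909 CPM. The diets did not overlap at CT16 and did at CT4, and the range of the difference was 1.32 (adjusted p = 0.0278). The mt-Rnr1 level was 184, 192 and 148 CPM on MCD at CT16 against 305, 363 and 416 CPM on control, and 410, 420 and 340 CPM against 257, 279 and 298 CPM at CT4. In CPM the diets did not overlap at either time. The fitted difference at CT16 was -1.31 and was called, and that at CT4 was 0.19 and was not (adjusted p = 0.616), with a range of the difference of 1.25 (adjusted p = 0.0165). For mt-Rnr2 the range of 1.18 did not pass (adjusted p = 0.0563). The mt-Nd3 level, called rhythmic on MCD, was 818, 785 and 812 CPM on MCD at CT16 against 362, 364 and 399 CPM on control. This gene lies between mt-Tg and mt-Tr, and its fitted peak was at CT17.2.

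**Figure D3:**
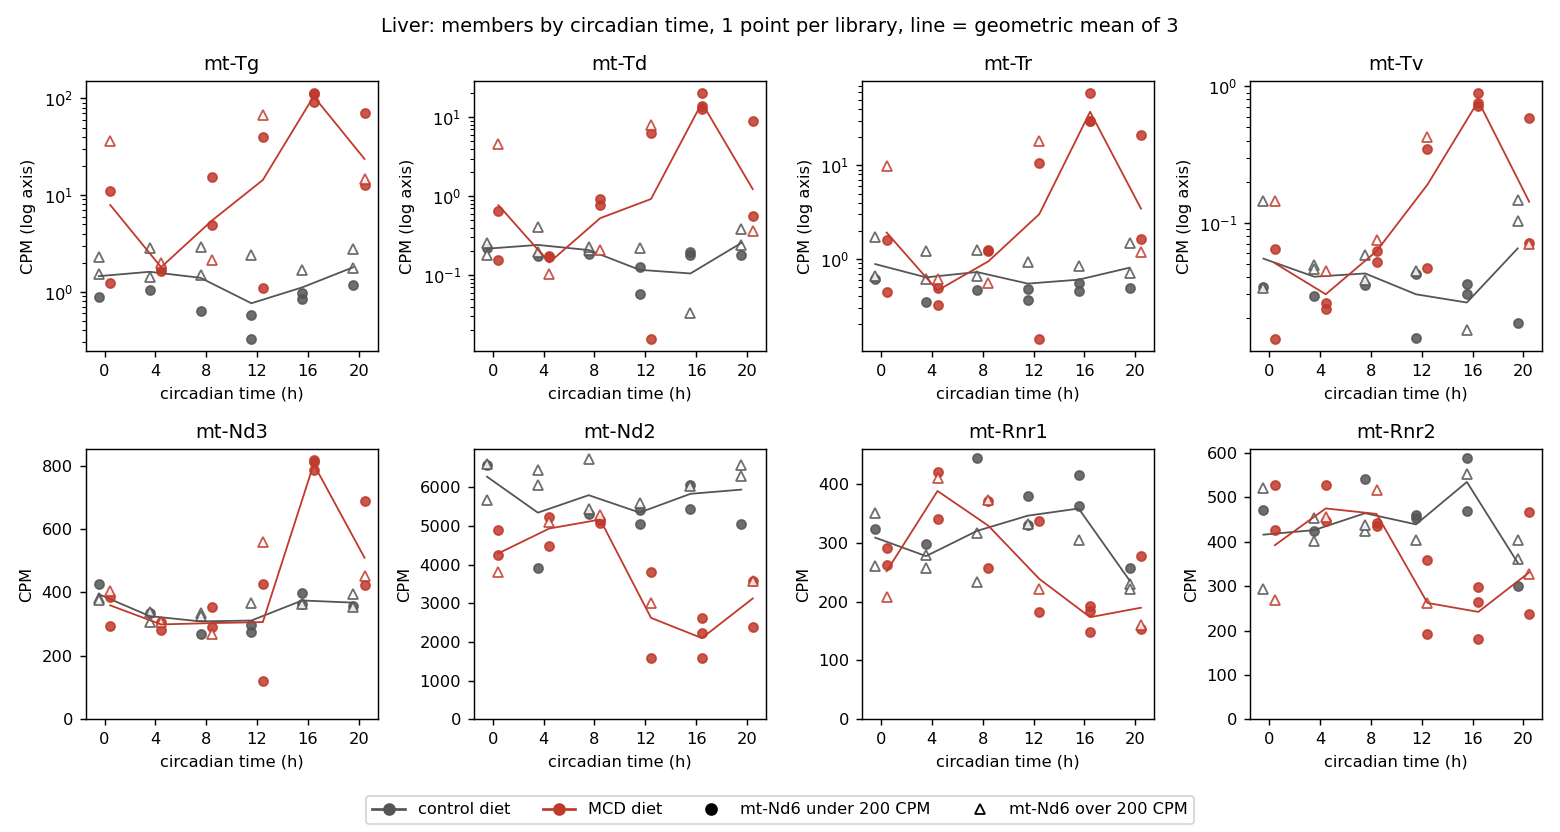
Liver CPM by circadian time (h) for members named for rhythm, with 1 point per library and lines through the geometric means of 3 libraries. The 4 tRNA panels have log axes and the others start at 0, and triangles mark libraries over 200 CPM of mt-Nd6. MCD libraries of CT16 stand at 91.8 to 113 CPM of mt-Tg, where controls are at 0.834 to 1.67, and the CT12 MCD replicates split.

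These rhythm differences were near the threshold. Those of mt-Tv and mt-Rnr1 were called whichever of the 36 libraries was left out, with edgeR adjusted p at most 0.0471 and 0.0372, within the limit of counts given for mt-Tv. Those fits kept the genes tested and the trend of the spread from all 36 libraries, so mt-Tv could not drop out. Without MCD CT12 replicate 2 these 6 and mt-Nd3, mt-Tw and mt-Tf were called. With limma, mt-Rnr1 (adjusted p = 0.0136) and mt-Nd2 (0.0271) were called and the 4 tRNAs were not, at 0.0746 for mt-Tv, 0.297 for mt-Tg, 0.322 for mt-Tr and 0.444 for mt-Td. When single libraries were left out in edgeR, the other 4 lost their call in turn. For mt-Nd2 this was without control CT4 replicate 3, control CT16 replicate 1, MCD CT4 replicate 3 or MCD CT16 replicates 2 or 3 (adjusted p up to 0.0619). For mt-Tr it was without control CT4 replicate 1, control CT16 replicate 2, MCD CT4 replicates 2 or 3 or MCD CT16 replicate 3 (up to 0.0608). For mt-Tg it was without control CT4 replicate 1, any MCD CT4 or control CT16 replicate or MCD CT16 replicate 3 (up to 0.0696), and for mt-Td the same with control CT4 replicate 2 in place of 1 (up to 0.0743).

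The liver libraries were of 2 kinds by mt-Nd6, a complex I mRNA and the only one on the minus strand. The 21 libraries of the low kind had 41.6 to 119 CPM of mt-Nd6 and the 15 of the high kind 414 to 925 CPM. Since mt-Nd6 defines the kinds, its values describe them only, with 103 ± 16.5 CPM in 8 low and 714 ± 156 in 10 high control libraries, and 79.2 ± 16.1 in 13 low and 455 ± 28.0 in 5 high MCD libraries. All 3 MCD libraries of CT16 were of the low kind. With the kinds pooled, mt-Nd6 was 76.5, 536 and 925 CPM on control against 41.6, 93.4 and 492 on MCD, a log2 difference of -1.59 that also holds the unequal mix of kinds between the diets, 10 high libraries of 18 on control and 5 of 18 on MCD.

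The kinds also differed in other members. Leaving out mt-Nd6, over the control libraries 10 of 36 members lay higher in every high library than in any low one, against 1.52% of all genes. These were 6 of the 8 minus-strand tRNAs (mt-Ta, mt-Tn, mt-Tc, mt-Ts1, mt-Te and mt-Tp) and 4 plus-strand tRNAs (mt-Tg, mt-Th, mt-Ts2 and mt-Tl2). Over the MCD libraries 6 did, against 1.64%, namely mt-Tn, mt-Tc, mt-Ts1, mt-Tp, mt-Th and mt-Ts2. No member lay lower without overlap on either diet, where 0.0175% of all genes did on control and 0.00438% on MCD. All 12 plus-strand mRNAs and both rRNAs overlapped between the kinds on both diets.

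The minus-strand tRNAs mt-Tn and mt-Tc show the size of it, and their sequences from the same annotation, anticodon in capitals, are given because they were near 0 in the low kind.
mt-Tn: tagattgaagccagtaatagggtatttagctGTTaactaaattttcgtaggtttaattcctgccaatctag
mt-Tc: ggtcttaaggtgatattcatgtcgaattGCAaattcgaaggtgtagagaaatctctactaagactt
On GRCm38, mt-Tn is at chrM:5089-5159 and mt-Tc, the cysteine tRNA, at chrM:5192-5257. In control libraries mt-Tn had 2 counts in all over the 8 low libraries and 4186 over the 10 high ones, which were at 2.83 to 12.1 CPM. On MCD it had 26 counts over 13 low and 1588 over 5 high libraries. The mt-Tc counts were 10 and 3496 on control and 51 and 1328 on MCD. The abundant minus-strand tRNAs differed less, with mt-Te at 39.2 ± 9.82 CPM in low and 87.5 ± 17.9 in high control libraries and mt-Ts1 at 79.1 ± 11.4 and 119 ± 10.8 CPM. The mt-Tp level was 0.412 ± 0.0885 and 5.85 ± 2.19 CPM.

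Other measures moved with the kinds. The share of reads that fell in no exon bin was 3.87 to 4.62% in 19 low libraries and 9.96 to 14.2% in 13 high ones, without overlap, and 3.61 to 6.13% in SCN. With both diets pooled, 1 of 122 other genes whose RNA lacks a poly(A) tail, such as histone and small nucleolar RNA genes, separated the kinds without overlap (Snora20). Of 10 nuclear copies of mitochondrial DNA none did. Pooling makes overlap more likely than the comparison within a diet made for the members, and no share of all genes was counted for it. These counts therefore cannot be set beside those of the members. The mitochondrial share of counts overlapped, at 6.77% ± 0.91 in low and 7.37% ± 0.326 in high control libraries. What made the kinds was not tested.

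**Figure D4:**
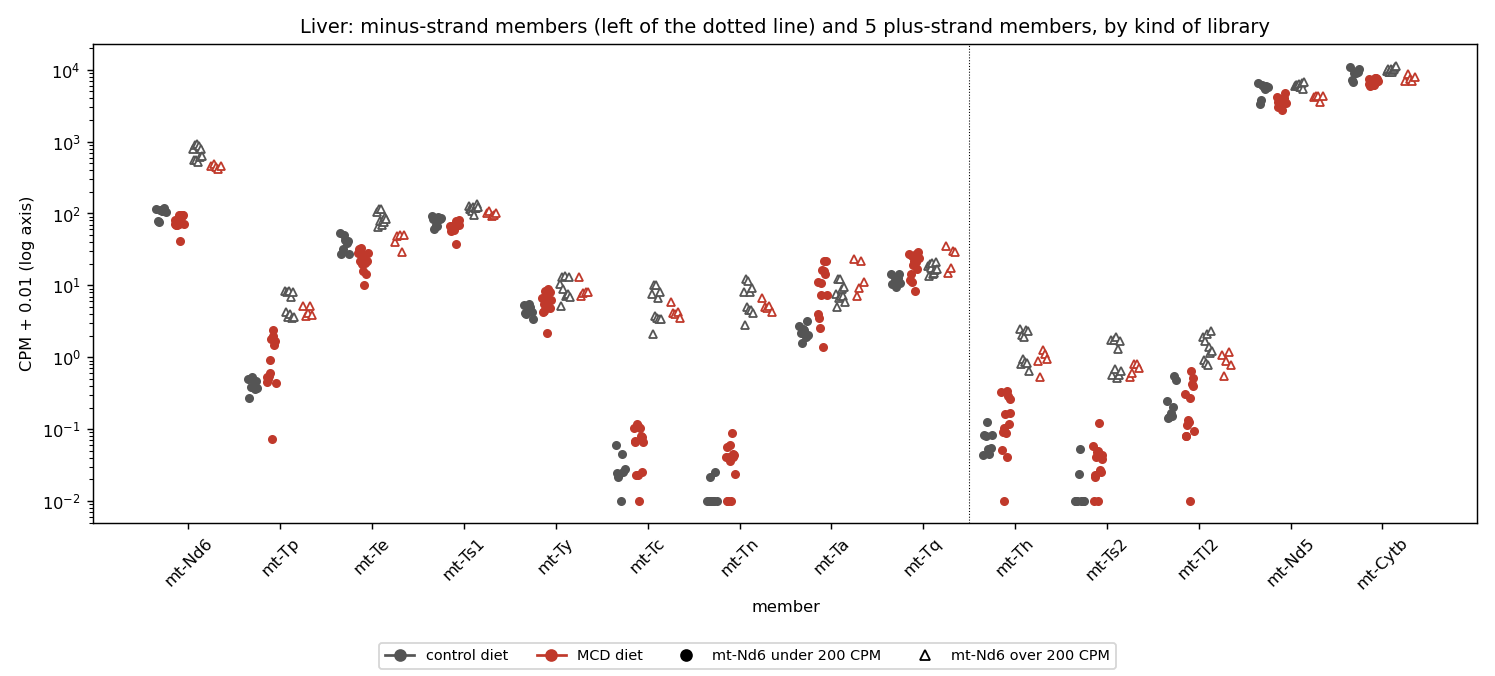
Liver CPM + 0.01 (log axis) of the 9 minus-strand members and 5 plus-strand members, 1 point per library, with circles for the low kind, triangles for the high kind and colour for diet. The low kind holds 41.6 to 119 CPM and the high kind 414 to 925 CPM of mt-Nd6, mt-Tn and mt-Tc part the same way, and mt-Nd5 and mt-Cytb overlap.

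The diet effect was also fitted within each kind and counted without mt-Nd6. Here it was 1 diet term beside time and sex, not the mean over 6 times used for all libraries. Among low libraries 18 of 29 members tested were called, against 25.3% of all genes (12.9% lower), with 7 of 12 mRNAs lower (median -0.42), both rRNAs lower, and of 15 tRNAs 6 higher, 3 lower and 6 not past the threshold. Among high libraries 22 of 34 were called, against 27.9% (13% lower), with 11 of 12 mRNAs lower (median -0.54), 1 rRNA lower, and of 20 tRNAs 10 lower and none higher. The mt-Tg difference was 4.17 among low libraries and 2.10 among high ones (adjusted p = 0.0909), that of mt-Td 3.51 and 1.47 (adjusted p = 0.354 in high), that of mt-Tr 2.96 and 0.76 (0.543) and that of mt-Tw 1.70 and 1.18 (0.103). The high kind held 5 MCD libraries and none of CT16, and the difference between the kinds in the diet effect was not tested. With kind as a term over all libraries, 25 of these 36 members were called, against 44.2% of all genes, with 9 of 12 mRNAs and both rRNAs lower and 10 tRNAs higher and 4 lower. The calls of mt-Nd1, mt-Atp8 and mt-Tl2 were then lost (adjusted p = 0.087, 0.0791 and 0.0847), and those of mt-Ta, mt-Tq and mt-Tt were gained, all 3 higher. No rhythm difference was called in edgeR among the low libraries, where 0.0552% of all genes were, or among the high ones, where none was, with 7 and 2 members at an unadjusted p under 0.05. Other tools were not run within the kinds.

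In SCN no member responded to the diet past the threshold. Of 30 members none was called over the 6 times, against 0.0635% of all genes, or 10 genes. At an unadjusted p under 0.05 in edgeR there was 1, mt-Tg, with a log2 difference of 0.23 ± 0.11, and DESeq2 and limma also called none. The mRNA differences ran from -0.03 to 0.04 with SE from 0.06 to 0.10. The rRNAs took 1.04% ± 0.259 of counts on control and 1.09% ± 0.303 on MCD (SD, n = 18 each). The tRNA of highest level, mt-Ts1, was at 69.2 ± 12.3 CPM on control and 66.3 ± 14.4 on MCD, mt-Te at 51.6 and 50.6 CPM and mt-Tl1 at 37.2 and 36.7 CPM. After mt-Tg, the largest tRNA differences were those of mt-Ta (0.23) and mt-Tl2 (0.20), which did not pass. No member was called at any single time in edgeR, where 0.00635% of all genes were at CT0, CT16 and CT20, 0.0444% at CT4 and none at CT8 and CT12, or in DESeq2 or limma, with 1 at an unadjusted p under 0.05 at CT0 in edgeR and 0 at each other time. For rhythm edgeR called none on control (15.1% of all genes), on MCD (16.1%) or for the difference (0.0127%), with 1, 2 and 0 members at an unadjusted p under 0.05, and limma called none, 1 and none.

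Whether the diet effect differed between the tissues was tested in 1 fit of both tables over 14491 shared genes. The fit treated liver and SCN libraries as independent, since the labels do not say which came from the same mouse. It did for 24 of 30 members, against 34.7% of genes tested. For 18 the difference was lower in liver (15.8% of all genes) and for 6 higher (18.9%). Among the mRNAs 11 of 13 were lower in liver, with a median of -0.52, and mt-Nd1 (adjusted p = 0.0682) and mt-Nd3 did not pass. The most negative values were those of mt-Tl2 (-1.61), mt-Nd6 (-1.57) and mt-Te (-1.47), although in the fit with a term for kind the liver effects of mt-Tl2 and mt-Te were -0.65, not called, and -1.13. The mt-Nd6 value pools the kinds, which its own level sets, and its liver means were 103 CPM on control and 79.2 on MCD in the low kind and 714 and 455 in the high kind. The most positive were those of mt-Tr (2.14), mt-Td (2.89) and mt-Tg (3.06).

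Nuclear genes that act on mitochondrial RNA moved in both directions, with list medians from -0.08 to 0.21. Their counts stand against 25.3% higher and 21.2% lower over all genes. Of 16 genes for mitochondrial transcription and the nucleoid, 1 rose and 7 fell in liver (median -0.04), among them Polg2 (-0.90), the accessory subunit of the DNA polymerase, Mterf2 (-0.65) and Top1mt (-0.42). Of 14 genes that cleave precursors and finish tRNA ends, 3 rose and 2 fell (median 0.00), with Trmt10c (0.32) and Hsd17b10 (-0.67), both subunits of mitochondrial RNase P, on opposite sides, and Tbrg4 (0.21). Of 8 genes for RNA stability and polyadenylation, 1 rose and 4 fell (median -0.08), including Lrpprc (-0.36) and Slirp (-0.44), which together protect mitochondrial mRNAs, while Pde12 (0.36), which removes their poly(A) tails, rose. Of 18 tRNA and rRNA modification genes, 8 rose and 1 fell (median 0.09), with Mrm3 (0.43), Yrdc (0.38) and Nsun3 (0.31) higher. Of 7 regulators of biogenesis 3 rose (median 0.21), Pprc1 (0.66), Ppargc1a (0.38) and Esrra (0.21). Of 83 mitochondrial ribosomal protein genes 18 rose and 29 fell (median -0.05), with Mrpl43 (0.55), Mrps18c (-0.52) and Mrpl54 (0.46) moving most. All these values are log2 differences on the TMM scale, where the median of all genes was 0.02, and the lists were not recomputed with library totals. No gene of these lists was called in SCN by edgeR.

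Reads of mitochondrial genes can also be assigned to nuclear copies of mitochondrial DNA. Of 10 such copies, 9 fell in liver with a median of -0.50, near that of the mitochondrial mRNAs, and none was called in SCN. They included Gm13339 (-0.79), Gm28437 (-0.64) and Gm10222 (-0.53). Their summed level was 10749 to 26448 CPM in liver libraries, so part of the reads of near-identical mitochondrial genes may stand under these names. Of 84 other tested genes whose RNA lacks a poly(A) tail, 34 rose and 5 fell on MCD in liver (median 0.35), led by the histone genes H4c18 (2.34), H4c17 (2.30) and H3c11 (2.28). These rose alongside the scarce tRNAs, and the part of poly(A) selection in either was not tested.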

How the data were processed

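Gene counts of 36 liver and 36 SCN libraries were used as the authors deposited them, as raw whole-number counts per gene in 2 tables, with exon-bin counts deposited per library as a second source. The submitters' processing notes name Trimmomatic, HISAT2, StringTie, DESeq2 and GRCm39 without roles. Gene classes, strands, coordinates and sequences came from GENCODE M21 on GRCm38 by gene ID, since a GRCm39 annotation was not used here. CPM are counts per 1000000 counts of a library, unscaled. Differences were fitted with edgeR 4.0.16 in R 4.3.3 (quasi-likelihood F test, TMM scaling, minimum count 10, robust), with 12 groups of diet and time and sex per tissue, and adjusted by Benjamini-Hochberg over all genes. Calls needed an adjusted p under 0.05. Diet effects are means over 6 times, and rhythms are 24 h cosine and sine contrasts, except within a kind of library. There the diet effect was 1 term beside time and sex, and rhythms were cosine and sine terms fitted per diet. Alternatives used DESeq2 1.42.0, limma 3.58.1, library totals, the kinds of library, exon bins and libraries left out. Where each library was left out in turn, the genes tested and the trend of the spread were kept from the fit on all 36. The fits were tested on simulated counts.

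All members are accounted for. Named in full were the mRNAs, the rRNAs and the tRNAs highest in level, largest in diet effect or lowest in p for a rhythm difference (3 of each), with up to 3 called genes per nuclear list. Other tRNAs were named to complete counts after their values were seen. The members and gene lists were chosen with earlier results of these data known. In each table the 2 control CT8 males share a column name, so no replicate number was assigned to them, and 2 exon-bin files end early and were left out. The protocol text speaks of male mice, while 12 libraries per tissue are labelled female. Mice are not stated to be shared or pooled between libraries. p-values measure the spread between these libraries, and depth gives intervals for counting error only.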

Additional observations from a re-analysis of the deposited data

Results flagged for a closer look

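The diet effect differed between liver and SCN, by edgeR's interaction test, for 24 of the 30 members in both tables. The difference, liver minus SCN in log2, was -1.61 for mt-Tl2, -1.57 for mt-Nd6, -1.47 for mt-Te, 2.14 for mt-Tr, 2.89 for mt-Td and 3.06 for mt-Tg. Of the liver effects that enter these values, 2 are given from the fit with a term for kind. Both were smaller there, -0.65 for mt-Tl2, which was then not called, and -1.13 for mt-Te. Those of mt-Tr, mt-Td and mt-Tg in that fit are not given here. The value of mt-Nd6 pools the kinds that its own level sets, and its liver means were 103 CPM on control and 79.2 on MCD in the low kind, and 714 and 455 in the high kind. The tissues were prepared and counted separately, so tissue and preparation cannot be told apart in this comparison.

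The 24 h rhythm in liver differed between the diets, by the test of the difference, for 6 members. With limma the 4 tRNAs among them were not called, and with a minimum of 50 counts mt-Tv was not tested. The peak-to-trough range of the difference in log2 was 5.51 for mt-Tg, 6.41 for mt-Td, 6.00 for mt-Tr, 4.87 for mt-Tv, 1.32 for mt-Nd2 and 1.25 for mt-Rnr1. Of these, mt-Tg and mt-Tr were at 0 in every readable liver exon-bin file, and all 3 MCD libraries of CT16 were of the low mt-Nd6 kind.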

How the results depend on the processing

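The 26 liver diet calls were 23 with limma (4 higher), 28 with DESeq2, 16 with exon-bin counts, 18 to 24 without one replicate number and 24 to 30 without one library, and mt-Nd1 changed sign with library totals (0.02). Members called at single times in liver numbered 18, and 2 to 13 without one replicate number. The 12 rhythms on MCD numbered 7 to 11 without one replicate number. They numbered 8 of 30 tested within the low kind and 0 of 35 within the high kind, which held no MCD library of CT16. The 0 on control became 1 with kind as a term and 1 without MCD CT12 replicate 2, in a fit added after seeing the data. That fit gave 28 diet calls, 22 members called at single times, 15 rhythms on MCD and 9 rhythm differences. The 6 rhythm differences became 2 with limma (mt-Nd2 and mt-Rnr1), 3 with a replicate block (mt-Nd2, mt-Tv and mt-Rnr1), which also left out the 2 control CT8 males, 0 within the low kind, 0 within the high kind, 0 to 1 without one replicate number and 2 to 9 without one library. In SCN the 0 rhythms on MCD became 1 with library totals, 1 with limma and 0 to 2 without one replicate number. The 24 tissue differences became 15 to 20 without one replicate number. The cause of these changes was not tested, except that leaving out a number removes 11 or 12 of 36 libraries, as those 2 males carry no number. The 10 members that parted the kinds on control numbered 10 with TMM scaling and 10 to 11 without one library, both added after seeing the data. Replicate numbers did not pair libraries: same-number deviations correlated at -0.391 to 0.189 in liver and -0.168 to 0.209 in SCN, and 5 and 6 of 16 correlated best with their own number. The block gave 26 diet calls in liver and 0 in SCN. Single-time calls with it were 20, rhythms on MCD 13 and tissue differences 24. Depth limits mt-Tf, mt-Tv and mt-Tk, with 315, 331 and 384 counts over the 36 liver libraries, and mt-Tn, mt-Tc, mt-Ts2 and mt-Th, which were near 0 in libraries of the low kind.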

Other observations

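In SCN the mitochondrial share of counts was 11.4% ± 1.43 in the 12 libraries labelled female and 9.6% ± 1.0 in the 24 labelled male (SD), and in liver it was 6.3% ± 0.845 and 6.54% ± 0.988. The sexes were not compared by a test, since sex was a covariate. The control CT20 female of the SCN, the shallowest library at 23.3 in units of 1000000 counts, was listed at 0 counts for mt-Tq and mt-Ta, where every other SCN library had at least 8.06 CPM of mt-Tq and 2.22 CPM of mt-Ta.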
